A study of Mus musculus with 6 samples.

Results

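A set of 1004 autosomal places bound by COUP-TFII in the peak list of female (XX) mesonephroi is described here. Each had no base in common with any peak of the male (XY) list, and its centre lay within 1 kb of an end, start or finish, of exactly 1 protein-coding gene. They were chosen from 11175 XX peaks, of which 3539 were autosomal and in the XX list only. Of those 3539, 2363 had no protein-coding gene end within 1 kb, 172 had ends of more than 1 gene there, and the remaining 1004 lay at 995 genes, 4.81% of the 20665 autosomal protein-coding genes. The same rule applied to the XY list of 9846 peaks gave 1122 XY-only peaks at single gene ends (5.32% of the genes), and 3740 XX peaks at single gene ends (17.4% of the genes) were shared with the XY list by at least 1 bp. Both lists chose the members, so the absence of an overlapping XY peak is a description and not a finding.

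The chromatin came from pools of CD-1 mouse embryos at E14.5, in 2 samples of XX and 2 of XY mesonephroi immunoprecipitated with a rabbit COUP-TFII antibody, beside 2 samples of input pooled from both sexes. The labels name no genotype or treatment, and no number of embryos per pool was used here. The extraction text speaks of RUNX1 and fetal ovaries. The other labels (title, tissue, antibody, design) give COUP-TFII and mesonephroi and were followed. Each sex has 1 deposited list of 300 bp peaks over its 2 samples, with no height, score or p-value, so replicate spread could not be given for any value. A test here compares 2 peak lists, not 2 sexes, and an interval covers only the counting error. Sequencing depth is unknown. A place missing from the XY list may have been bound below the threshold of the authors' peak calling.

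COUP-TFII, the product of Nr2f2, is an orphan nuclear receptor abundant in mesenchyme, and COUP-TF receptors bind DNA as dimers at pairs of a short element, the nuclear receptor half-site. The mesonephros lies beside the fetal gonad and carries the Wolffian duct, forerunner of the epididymis and vas deferens, and the Müllerian duct, forerunner of the oviduct and uterus. In XX embryos the Wolffian duct is lost, a process in which mesenchymal COUP-TFII is known to take part. Many mammalian promoters lie in stretches rich in CpG pairs and GC boxes.

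Where a member peak covered at least 150 bp of a RefSeq promoter window (250 bases before to 50 after a transcription start, GRCm38.p6, the assembly of mm10), the bases under the peak could be read. The 5 shown first held the half-site AGGTCA on either strand (capitals, also read as TGACCT). They begin with Zyx, the 1 gene of the pathway and cell type lists used below that qualified, followed by the other members centred closest to their gene's start. Each is the part of the promoter window inside the peak, 5′ to 3′ on the gene's strand.
Zyx (chr6:42349642-42349877, plus strand): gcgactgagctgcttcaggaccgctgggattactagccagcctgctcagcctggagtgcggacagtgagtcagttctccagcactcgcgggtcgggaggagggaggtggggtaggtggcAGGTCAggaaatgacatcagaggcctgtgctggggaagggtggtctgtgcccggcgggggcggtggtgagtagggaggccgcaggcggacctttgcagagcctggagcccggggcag
Arpp19 (chr9:75037482-75037769, plus strand): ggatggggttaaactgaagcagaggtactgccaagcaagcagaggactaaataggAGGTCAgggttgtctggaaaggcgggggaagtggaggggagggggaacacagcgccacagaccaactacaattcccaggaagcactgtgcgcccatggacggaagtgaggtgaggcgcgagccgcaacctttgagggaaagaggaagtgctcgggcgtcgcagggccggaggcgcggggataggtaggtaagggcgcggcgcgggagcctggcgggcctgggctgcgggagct
Med6 (chr12:81594959-81595169, minus strand): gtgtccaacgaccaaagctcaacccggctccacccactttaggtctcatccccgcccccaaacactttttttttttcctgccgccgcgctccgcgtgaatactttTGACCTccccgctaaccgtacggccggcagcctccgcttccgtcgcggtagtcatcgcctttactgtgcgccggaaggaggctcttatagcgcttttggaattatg
Arhgap29 (chr3:121952979-121953245, plus strand): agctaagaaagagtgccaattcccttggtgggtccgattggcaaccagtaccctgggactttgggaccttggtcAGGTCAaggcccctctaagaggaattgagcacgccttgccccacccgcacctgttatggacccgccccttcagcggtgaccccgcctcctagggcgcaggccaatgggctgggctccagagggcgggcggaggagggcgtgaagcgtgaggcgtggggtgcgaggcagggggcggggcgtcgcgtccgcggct
Psmd6 (chr14:14120896-14121111, minus strand): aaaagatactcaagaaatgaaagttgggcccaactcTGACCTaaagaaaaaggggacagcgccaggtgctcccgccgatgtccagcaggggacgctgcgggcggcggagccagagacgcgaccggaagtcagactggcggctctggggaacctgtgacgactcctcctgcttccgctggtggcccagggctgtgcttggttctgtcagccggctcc

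Zyx encodes zyxin, a focal adhesion protein. Its peak was centred 281 bp downstream of the gene's outermost start. Its window, like those of Arpp19, Arhgap29 and Bco1, belongs to a further start inside the gene (position 42349828 of chromosome 6 for Zyx). Arpp19 encodes an inhibitor of the phosphatase PP2A, and its peak was centred 6 bp downstream of the start. Med6 is a subunit of the Mediator complex and Psmd6 a subunit of the proteasome lid. The peaks of Med6, Arhgap29 and Psmd6 were centred within 17 bp of their starts. The nearest XY peak stood very differently around them: it began 8 bp away at Med6, 54 bp at Zyx and 177 bp at Arpp19, but 14495 bp away at Arhgap29 and 108168 bp at Psmd6.

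A pair of members held the full DR1 element, in which an AGGTCA is repeated in the same direction after 1 base. Both are shown because DR1 is a classical COUP-TF element and is rare in promoter windows. They were chosen after their sequences were searched, and capitals mark the repeat with its spacer.
Wfdc15a (chr2:164200068-164200234, minus strand): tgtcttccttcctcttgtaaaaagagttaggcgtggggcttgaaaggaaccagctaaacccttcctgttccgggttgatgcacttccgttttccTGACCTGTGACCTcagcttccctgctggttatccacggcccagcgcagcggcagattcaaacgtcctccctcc
Bco1 (chr8:117095615-117095910, plus strand): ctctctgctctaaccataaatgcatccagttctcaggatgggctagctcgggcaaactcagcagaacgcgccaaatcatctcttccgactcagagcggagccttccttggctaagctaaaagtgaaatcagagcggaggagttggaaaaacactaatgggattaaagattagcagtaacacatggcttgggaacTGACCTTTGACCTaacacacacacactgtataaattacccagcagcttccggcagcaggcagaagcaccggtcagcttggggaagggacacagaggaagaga

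Wfdc15a encodes a small whey acidic protein domain protein. Its peak was centred 32 bp downstream of the start, and the nearest XY peak lay 129016 bp away. Bco1 encodes the oxygenase that cleaves beta-carotene to retinal. Its peak was centred 90 bp upstream of the start, with 62307 bp to the nearest XY peak. Rplp0, a ribosomal protein gene of the lists used below, is shown as a member whose window held no AGGTCA on either strand. Most windows touched by a member were like it, with AGGTCA in 63 of 462 (13.6%).
Rplp0 (chr5:115559269-115559516, plus strand): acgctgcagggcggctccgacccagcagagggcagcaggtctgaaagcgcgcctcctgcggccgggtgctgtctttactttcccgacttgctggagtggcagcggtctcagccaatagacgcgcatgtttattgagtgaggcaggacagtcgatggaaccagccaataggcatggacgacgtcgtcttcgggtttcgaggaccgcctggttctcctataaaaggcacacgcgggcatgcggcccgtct

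The Rplp0 stretch of 248 bases had 22 CpG pairs and a GC content of 61.3%. The Bco1 stretch of 296 bases had 8 CpG pairs and a GC content of 49.7%. Stretches with AGGTCA could also be rich in CpG: that of Med6, of 211 bases, had 20 CpG pairs and a GC content of 57.3%.

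Which end of its gene a member occupied was not part of the rule. Chromosome 18, with 29 members, is not analysed here for strand. On the other 18 autosomes the gene's strand was found for 801 of 975 members (82.2%), for 910 of 1098 XY-only peaks (82.9%) and for 2992 of 3615 shared peaks (82.8%). Of the 801 members, 774 lay at the start, 22 at the 3′ end and 5 within 1 kb of both ends of a short gene. Of those at 1 end, 97.2% were at the start (exact 95% interval 95.8 to 98.3), against 98.1% of XY-only peaks (97.0 to 98.9) and 98.4% of shared peaks (97.9 to 98.8). Within 1 kb, a difference from XY-only peaks in the odds of lying at the start was not detectable beyond counting error (odds ratio 0.674, with bounds of 0.334 and 1.34 at 95%, and p = 0.257 by a two-sided exact test of Fisher, adjusted over 4 tests of position p = 0.257). This call depended on the window: with gene ends taken to 2.5 kb the ratio was 0.370 (0.212 to 0.625, Fisher's exact p = 7.7e-05), with members less often at the start. With shared peaks in place of XY-only ones the ratio came to 0.576 (0.339 to 1.01), which missed the threshold of 0.05 after adjustment (Fisher's exact p = 0.0382, adjusted p = 0.0509).

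The 22 members at 3′ ends included the peaks of Per1, a core gene of the circadian clock, Mmp14, a membrane-bound matrix metalloprotease, Phgdh, the first enzyme of serine synthesis, and Epo, the gene of erythropoietin. They also included Pim3, Nanos1, Spock2, Prdm8 and Tmsb10. These were named after their positions were seen. The Phgdh peak (chromosome 3, 98312905 to 98313204) was centred 116 bp past the end of the gene and 26914 bp from the nearest start in the promoter table. The Mmp14 peak (chromosome 14, 54443250 to 54443549) was centred 944 bp past the end and 11802 bp from a listed start. In all, 14 of the 22 were centred inside the gene and 8 past its end, and 3 of the 22 (Prdm8, Epo and C2cd4b) had a listed start of a noncoding gene within 1 kb.

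At gene starts the members lay further upstream than the XY-only peaks. The centre of 261 of 774 members was upstream of the start (33.7%, exact 95% interval 30.4 to 37.2), against 187 of 887 XY-only peaks (21.1%, 18.4 to 23.9) and 786 of 2930 shared peaks (26.8%, 25.2 to 28.5). The odds of an upstream centre were 1.90 times as high for members as for XY-only peaks (1.52 to 2.39 at 95%, with p = 7.62e-09 by Fisher's exact test and p = 3.05e-08 adjusted over the 4 tests). Against shared peaks they were 1.39 times as high (1.17 to 1.65, Fisher's exact p = 0.000193, adjusted p = 0.000385). The rule keeps members off XY peaks, while shared peaks lie on them. The contrast with shared peaks is thus fixed in part by the choice of members. These comparisons of side were chosen after the positions were seen, and the one against shared peaks depended on the definition of sharing: once XX and XY peaks up to 1 kb apart were taken as shared, the ratio was 1.12 (Fisher's exact p = 0.293). The difference from XY-only peaks held under that definition, with 30.3% of 519 members and 19.4% of 634 XY-only peaks upstream (odds ratio 1.80, Fisher's exact p = 2.42e-05).

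**Figure D1:**
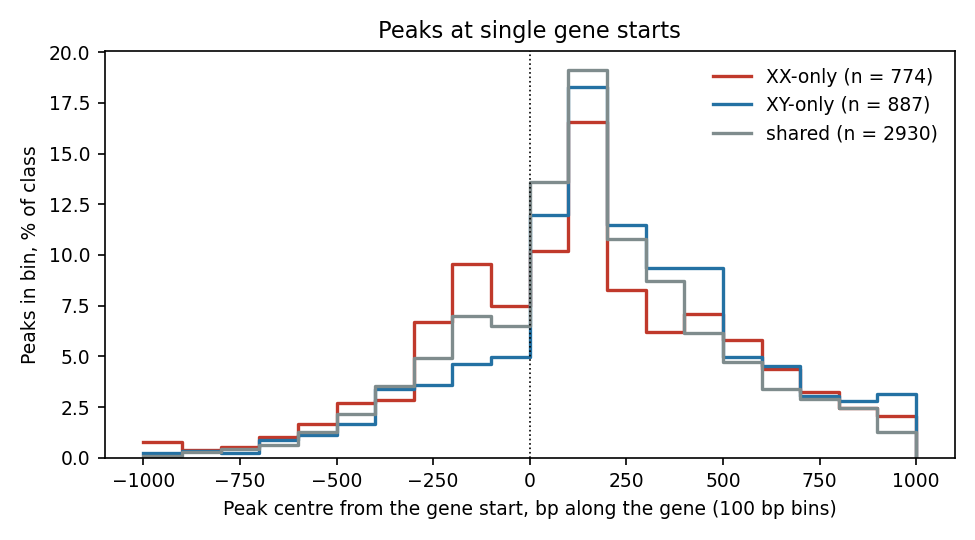
Distance of peak centres from the gene start (bp along the gene, 100 bp bins, negative upstream) against the percent of each class, for 774 XX-only (red), 887 XY-only (blue) and 2930 shared (grey) peaks. Each class was highest between 100 and 200 bp downstream, and the XX-only line lies above the others between 300 and 100 bp upstream.

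The middle of each distribution lay just inside the gene. The median centre was 130 bp downstream of the start for members, with quartiles at -113 and 400 bp. It was 193 bp downstream for XY-only peaks, with quartiles at 43 and 421 bp, and 145 bp for shared peaks, with quartiles at -32.8 and 347 bp. The bin from 200 to 100 bp upstream held 9.56% of members, 4.62% of XY-only peaks and 205 of the 2930 shared peaks. The upstream share of members was above that of XY-only peaks on 16 of the 18 chromosomes with strands. The exceptions were chromosome 13 (23.8% against 30.0%) and chromosome 17 (22.5% against 26.8%). It was above that of shared peaks on 14 of 18. At starts with a shared peak, where both lists have a position, the XX centre lay a median of 2 bp to the upstream side of the XY centre (-2 along the gene), with 51.2% of 2930 XX centres upstream of their partner and 47.9% downstream.

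**Figure D2:**
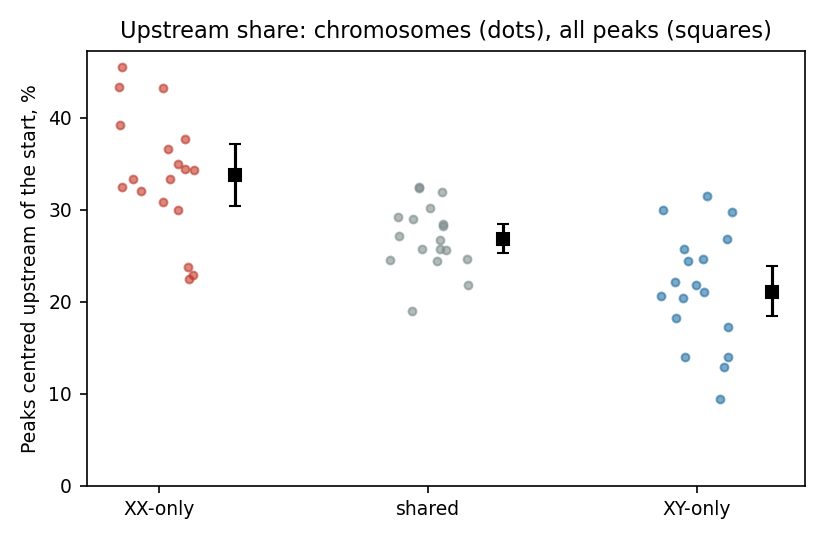
Percent of peaks at single gene starts whose centre lay upstream of the start, on each of 18 autosomes (dots) and over these autosomes (squares, with exact 95% intervals). The XX-only square is at 33.7%, the shared one at 26.8% and the XY-only one at 21.1%, with dots of the 3 classes overlapping.

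Being in the XX list only did not mean that a gene was empty in the XY list. Of the 995 member genes, 313 (31.5%) had some XY peak centred within 1 kb of an end, close to the 30.7% of the 20665 autosomal protein-coding genes that had one. At 122 member genes (12.3%) a shared peak also lay within 1 kb of an end. An XY-only peak at a single end lay at 192 member genes (19.3%), against 5.32% of all autosomal protein-coding genes. By the rule no member overlaps an XY peak, so these shares are descriptions and were not tested. The remaining 682 member genes had no XY peak within 1 kb of their ends. Counted peak by peak, 83 members had an XY peak within 100 bp, a further 231 within 1 kb, 72 at over 1 to 10 kb, 442 at over 10 to 100 kb and 176 farther away. The median gap was 23652.5 bp, against 26301.5 bp from XY-only peaks to the XX list. Of members at starts, 41.7% of the 254 whose gene had an XY peak near an end lay upstream, and 29.8% of the other 520 did. The rule keeps members off XY peaks, most of which lie downstream of the start, so this contrast is fixed in part by the choice of members and is a description.

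**Figure D3:**
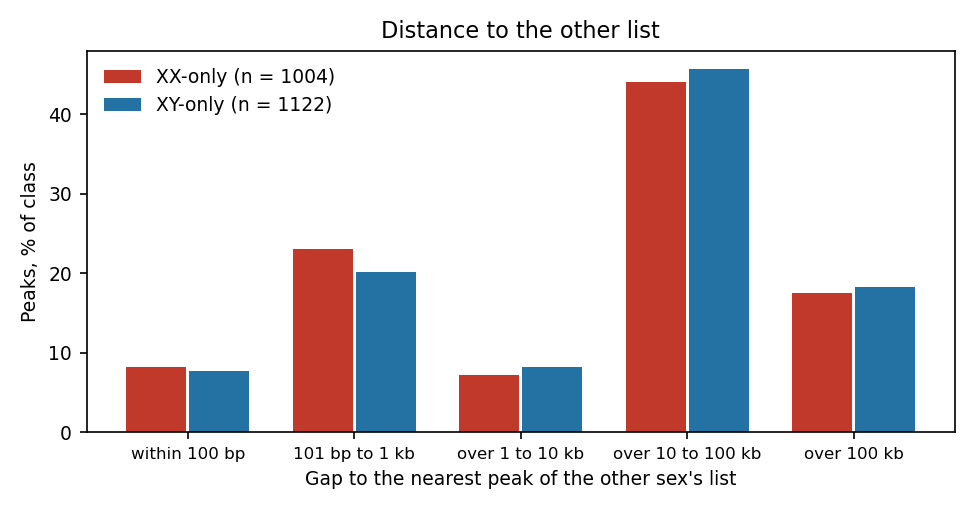
Percent of XX-only (red, n = 1004) and XY-only (blue, n = 1122) peaks at single gene ends by the gap to the nearest peak of the other list. In both classes the bars at 10 to 100 kb are the tallest (44.0% and 45.7%), and 31.3% of XX-only and 27.8% of XY-only peaks had a neighbour within 1 kb.

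At 152 genes 1 XX-only and 1 XY-only peak lay at the same start. Peaks of these classes share no base by the rule, so their separation was fixed by the choice and is a description. The centres were 301 to 1434 bp apart, with a median of 415 bp (414.5). The XX-only peak was the more upstream at 89 of the 152 (58.6%, exact 95% interval 50.3 to 66.5). At 59 genes the XX-only peak was upstream and the XY-only peak downstream of the start, and at 31 genes this was turned round. At 54 genes both lay downstream and at 8 both upstream. Chd6, a chromatin remodeller gene, had its XX-only peak 518 bp upstream of the start and its XY-only peak 86 bp downstream. Ccne1, encoding the G1/S cyclin E1, had them the other way, with the XX-only peak 696 bp downstream and the XY-only peak at -512 bp.

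No gene had more than 2 member peaks, and 9 genes had 2: Actn1, Cbl, Ints6, Pex13, Rbpms, Slc36a4, Slc4a7, Vps8 and Zfand6. At 7 of them both peaks stood at the same end. Ints6, a subunit of the Integrator complex (gene 18130, chromosome 14, 62676325 to 62761163), had XX-only peaks centred 431 bp upstream and 521 bp downstream of its start, and an XY-only peak at -13 bp between them. Pex13, a peroxisome import gene (gene 72129, chromosome 11), had XX-only peaks 521 bp upstream and 441 bp downstream, around an XY-only peak at -112 bp. Slc4a7, a bicarbonate transporter gene (gene 218756, chromosome 14), had them 428 bp upstream and 620 bp downstream, around an XY-only peak at 178 bp. At these 3 genes the XX list had a peak on either side of the place called in the XY list.

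At Cbl, Rbpms, Slc36a4 and Zfand6 the pair had no XY counterpart nearby. Cbl, a ubiquitin ligase gene that ends receptor tyrosine kinase signals, had peaks 11 bp upstream and 847 bp downstream of its start, and the nearest XY peak was 33.5 kb away. Slc36a4, an amino acid transporter gene, had peaks 207 bp upstream and 440 bp downstream, with 215 kb to the nearest XY peak. Zfand6, a zinc finger gene, had peaks 148 bp upstream and 605 bp downstream, with 83.3 kb to the nearest XY peak. Rbpms, whose strand was not found, had peaks 245 bp outside and 666 bp inside the same gene end, with 62.7 kb to the nearest XY peak. Actn1, the gene of the actin crosslinker alpha-actinin 1, had 1 member 204 bp upstream of its start and 1 inside the gene, 954 bp before its 3′ end. Vps8, of endosomal sorting, also had 1 at either end, 328 bp and 263 bp inside the gene.

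The promoter windows touched by members were rich in CpG. Strand and sequence were available for 462 windows touched by a member, 490 by an XY-only peak and 1845 by a shared peak. Their median GC content was 63.0% for members, 62.3% for XY-only and 63.0% for shared peaks, against 57.0% over the 20085 windows of autosomal protein-coding genes. The median number of CpG pairs per 300 bases was 23 for members, 23 for XY-only and 24 for shared peaks, against 14 over all windows. A ratio of observed to expected CpG under 0.6 was found in 82 of the 462 member windows (17.7%), in 13.5% of XY-only windows, 11.9% of shared windows and 51.1% of all windows. When each member with an entry was given the window of its gene nearest to the peak, touched or not, the median GC content of the 801 windows was 62.7%. These values are descriptions without a test, and the set of all windows was not limited to genes expressed in this tissue.

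Motifs were searched over each whole window of 300 bases, of which as little as 1 bp could lie in the peak. A match could thus lie outside the peak, and peak bases beyond the windows were not read. Among 15 short motifs searched on both strands, the COUP-TF half-site AGGTCA was in 63 of 462 member windows (13.6%, exact 95% interval 10.6 to 17.1). It was in 46 of 490 XY-only windows (9.39%, 6.96 to 12.3), 301 of 1845 shared windows (16.3%, 14.7 to 18.1) and 14.7% of all windows. Members and XY-only windows gave an odds ratio of 1.52 (0.999 to 2.34), with Fisher's exact p = 0.0420 before and p = 0.420 after adjustment over 30 tests. With at least 150 bp of the window in the peak, 18.8% of 213 member windows and 10.9% of XY-only windows held it (odds ratio 1.89, Fisher's exact test adjusted p = 0.312). The variant GGGTCA was in 64 member windows (13.9%), against 13.9% of XY-only windows, 369 of the 1845 shared windows and 13.9% of all windows. Its odds ratio against shared windows was 0.643 (0.475 to 0.862, Fisher's exact test adjusted p = 0.0648). None of the 30 comparisons passed the adjusted threshold of 0.05, and 3 had an unadjusted p under 0.05.

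The exact DR1 repeat was in 2 member windows (0.433%), 2 shared windows (0.108%), 0 of 490 XY-only windows (exact 95% interval up to 0.750%) and 9 of the 20085 windows (0.0448%). A half-site extended by 2 bases, AAAGGTCA, which contains AGGTCA, was in 5 member windows (1.08%) and 1.29% of all windows. The GC box GGGCGG, read by Sp and KLF factors, was in 72.7% of member windows, 71.4% of XY-only, 72.8% of shared and 47.0% of all windows. The ETS motif CCGGAAG was in 19.7% of member, 20.2% of XY-only, 25.6% of shared and 11.9% of all windows (members against shared, odds ratio 0.714, Fisher's exact test adjusted p = 0.137). The NRF1 core GCGCATGC was in 5.84% of member, 8.37% of XY-only, 7.15% of shared and 3.55% of all windows. In the same order, the YY1 motif AAGATGGC was in 4.33%, 4.69%, 6.07% and 3.06%. The CRE TGACGTCA was in 3.03% of member, 4.69% of XY-only, 4.82% of shared and 2.30% of all windows. CCAAT was in 39.0% of member, 37.1% of XY-only, 41.6% of shared and 38.1% of all windows.

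The AP-1, GATA, HOX/PBX, TEAD and E-box motifs were each less frequent in member, XY-only and shared windows than in all windows. The AP-1 motif TGANTCA was in 3.25% of member, 2.86% of XY-only, 4.07% of shared and 7.06% of all windows. In the same order, the GATA motif AGATAA was in 3.90%, 2.65%, 4.44% and 9.57%. The HOX/PBX motif TGATTNAT was in 0.649%, 0.816%, 0.542% and 2.74%. The TEAD motif GGAATG was in 9.52%, 12.2%, 10.9% and 13.4%, and the E-box CANNTG in 61.3%, 57.8%, 60.5% and 68.7%. The E-box letters can overlap other motifs. A match is a string of letters and not a site shown to be bound.

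**Figure D4:**
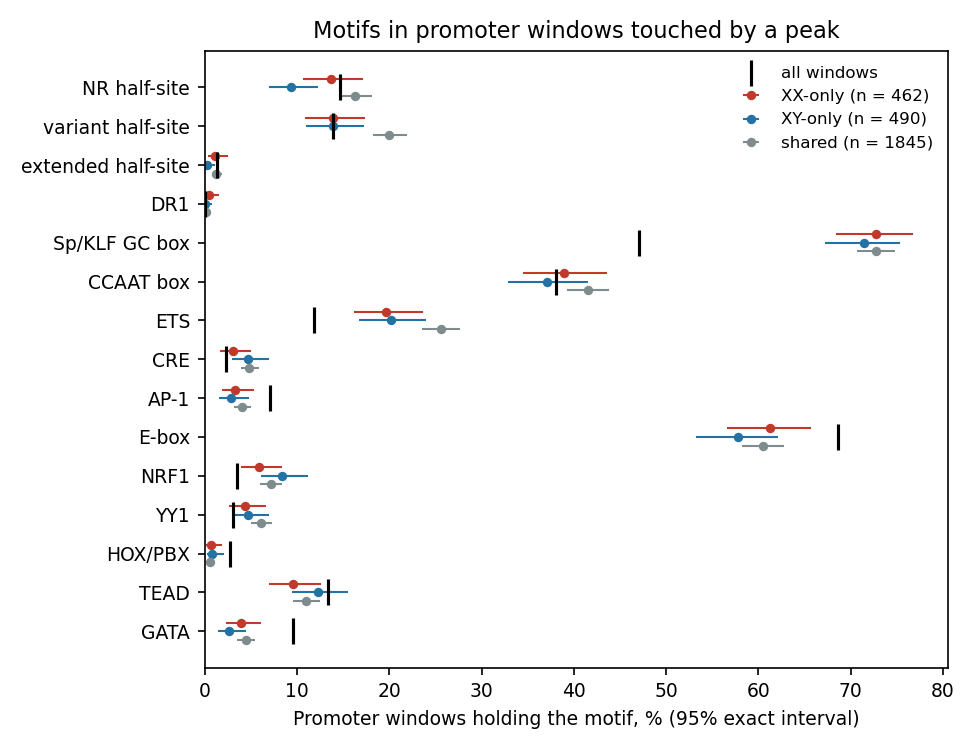
Percent of 300-base promoter windows holding each of 15 motifs, with exact 95% intervals, for windows touched by XX-only (red, n = 462), XY-only (blue, n = 490) and shared (grey, n = 1845) peaks, and for all windows (black bars). The GC box is at 72.7% of XX-only windows against 47.0% of all, and AGGTCA at 13.6% against 14.7%.

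The member genes were of many kinds. Counted once per peak, the median gene length was 27.9 kb (27923.5 bp), against 29473.5 bp at XY-only and 28130.5 bp at shared peaks. Over all autosomal protein-coding genes, each counted once, it was 17491 bp. At 158 members (15.7%) an end of a noncoding gene also lay within 1 kb, most often of a long noncoding RNA (136 members), against 16.4% of XY-only and 17.0% of shared peaks. At 129 of the 995 genes (13.0%) the XX list had another peak deeper in the gene, over 1 kb from both ends. This share was not counted over all autosomal protein-coding genes, so it cannot be called high or low. On each autosome members made up between 7.48% (chromosome 14) and 11.8% (chromosome 7) of the XX list.

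Gene lists for mesenchyme, signalling, ducts, hormones and other cell types held 687 autosomal protein-coding genes, and 43 of these (6.26%) had a member peak. This stands against 4.81% of all autosomal protein-coding genes, a set that includes large families without a member. Of these, 0 of 1104 genes with Olfr symbols (olfactory receptors) and 0 of 354 with Vmn symbols (vomeronasal receptors) had a member peak. No expression values were used here, and the cause of the difference was not tested. XY-only peaks were at 60 genes of the lists (8.73%), against 5.32% of all genes. Of the 43, 29 had no XY peak within 1 kb of an end, 14 had one, and 7 had an XY-only peak at a single end. The counts per list are small and were not tested.

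**Figure D5:**
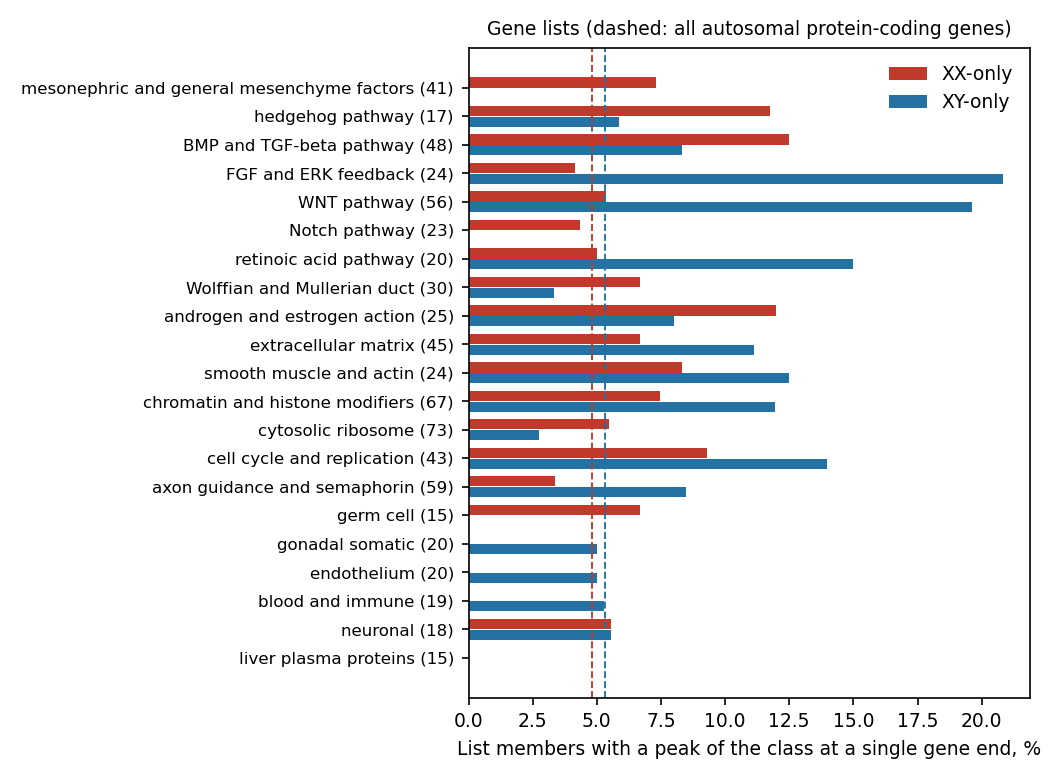
Percent of the autosomal genes of each list (their number in brackets) with an XX-only (red) or XY-only (blue) peak at a single gene end. Dashed lines mark all autosomal protein-coding genes, at 4.81% and 5.32%, and the bars rest on at most 11 genes.

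Of 41 mesenchymal factors, 3 had a member peak (7.32%, against 4.81% of all autosomal protein-coding genes). At a single end, 0 had an XY-only peak and 9 a shared peak, against 5.32% and 17.4% of all genes. These small counts were not tested. Osr1, a zinc finger factor of intermediate mesoderm (gene 23967, chromosome 12, 9574442 to 9581500), had its peak 339 bp from a gene end, with 359 kb to the nearest XY peak. Snai2, a repressor of epithelial genes (gene 20583, chromosome 16), had its peak 345 bp from an end, with 288 kb to the nearest XY peak. Meis2, a TALE homeobox gene (gene 17536, chromosome 2), had its member peak 270 bp downstream of the start, with 45.7 kb to the nearest XY peak, and the gene also had a shared peak within 1 kb of an end.

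BMP and TGF-beta genes had 6 members among 48 (12.5%, against 4.81% of all autosomal protein-coding genes). XY-only peaks were at 4 of the 48 and shared peaks at 12, against 5.32% and 17.4% of all genes. No difference was tested. The ligand gene Tgfb3 had its peak 447 bp outside a gene end. Among receptors, Bmpr1b, a type I receptor of BMPs, had its peak 343 bp downstream of the start and 596 kb from any XY peak. Acvr1b, the activin type I receptor, had its peak 283 bp upstream of the start, and Acvr2b, an activin type II receptor, 201 bp downstream. The nearest XY peak was 94.6 kb away at Acvr1b but 1.11 kb away at Acvr2b. Tgfbr1, the TGF-beta type I receptor, had both an XX-only and an XY-only peak. Ltbp1, which holds latent TGF-beta in the matrix, had its member peak 386 bp upstream of the start beside a shared peak, and 3 further XX peaks deeper in the gene.

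Other signalling pathways had 1 to 3 member genes each. Members were 11.8% of hedgehog, 4.17% of FGF and ERK feedback, 5.36% of WNT and 4.35% of Notch genes. Of all autosomal protein-coding genes they were 4.81%, and genes with an XY-only peak at a single end were 5.32%. No difference was tested. Of 17 hedgehog genes, Cdon, a co-receptor, and Kif7, a kinesin of the cilium tip, had member peaks. The Cdon peak was 294 bp upstream of the start with an XY peak 381 bp from it, and the Kif7 peak was 110 bp downstream with the nearest XY peak 55.1 kb away. Of 24 FGF and ERK feedback genes, 1 had a member peak and 5 an XY-only peak: Fgfr2, a receptor of epithelial and mesenchymal FGFs, was the member, 334 bp downstream of the start. Of 56 WNT genes, 3 had a member peak and 11 an XY-only peak. Dvl1, which relays the signal from Frizzled receptors, had its peak 497 bp downstream and Nkd1, an inhibitor of the pathway, 518 bp downstream. Tcf7l1, a nuclear repressor of the pathway, had its member peak 279 bp downstream of the start and an XY-only peak 609 bp downstream. Maml3, a Notch coactivator gene, was the 1 member among 23 Notch genes, with 6 further XX peaks deeper in the gene.

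Genes of hormone action and the ducts followed. Of 25 genes of androgen and estrogen action, 3 had member peaks and 2 XY-only peaks. Ncoa1, a coactivator of steroid receptors, had its peak 302 bp upstream of the start and 115 kb from the nearest XY peak. Ncoa3, of the same coactivator family, had its peak 228 bp outside a gene end, beside a shared peak. Fkbp4, a co-chaperone of steroid receptors, had an XX-only peak 682 bp and an XY-only peak 321 bp downstream of the start. Of 20 retinoic acid genes, 1 had a member peak and 3 an XY-only peak. Rxra was the member, with its peak 166 bp downstream of the start and 136 kb from the nearest XY peak. Rxra encodes the receptor with which many nuclear receptors, COUP-TFs included, can pair. Of 30 duct genes, Limch1 and Osr1 were members, and the Limch1 peak lay 277 bp downstream of the start and 126 kb from the nearest XY peak.

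Structural, housekeeping and guidance lists had 2 to 5 member genes each. Members were 6.67% of matrix, 7.46% of chromatin, 5.48% of cytosolic ribosomal protein and 9.30% of cell cycle genes. They were 8.33% of smooth muscle and actin genes and 3.39% of guidance genes. Of all autosomal protein-coding genes, 4.81% had a member, 5.32% an XY-only and 17.4% a shared peak at a single end. No difference was tested. Of 45 matrix genes, Lamc1, a laminin chain, Postn, periostin, and Mfap4, a microfibril protein, had member peaks. The Postn peak was 646 bp upstream of the start, with 334 kb to the nearest XY peak, while the Lamc1 peak had an XY peak 83 bp away. Of 67 chromatin genes, Setdb1, Nsd1, Crebbp, Kat6b and Chd6, which encode histone methyltransferases, acetyltransferases and a remodeller, had member peaks, 8 had XY-only and 28 shared peaks. Of 73 cytosolic ribosomal protein genes, 4 had a member peak, 2 an XY-only and 32 a shared peak. Rplp0 and Rpl14 had theirs 48 and 75 bp upstream of the start, and Rpl32 had its peak 548 bp inside a gene end. Of 43 cell cycle genes, Ccnb2, Cdc20, Ccne1 and Cdkn2a were members, and the Cdc20 peak was 205 bp upstream of the start. Of 24 smooth muscle and actin genes, Zyx and Actn1 were members, and of 59 guidance genes, Sema6c and Unc5d.

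Lists of other cell types the tissue could hold had 0 or 1 member among 15 to 20 genes each, too few to set apart from the 4.81% of all genes. Sycp3, a synaptonemal complex gene, was the 1 among 15 germ cell genes, and Syt1, a synaptic vesicle gene, the 1 among 18 neuronal genes. Of 20 gonadal somatic, 20 endothelial, 19 blood and immune and 15 liver genes, 0 had a member peak, with 1, 1, 1 and 0 at XY-only peaks. By the start of the symbol, a grouping chosen after the members were seen, 21 of 388 Zfp genes (5.41%), 23 of 362 Slc transporter genes (6.35%), 8 of 50 Usp deubiquitinase genes (16.0%), 9 of 80 Rnf genes (11.3%) and 7 of 65 Rab genes (10.8%) were members, against 4.81% of all autosomal protein-coding genes. Other symbol families lay below that share, with 8 of 231 Tmem genes (3.46%), 3 of 78 Mrpl and Mrps genes (3.85%), 1 of 47 Nduf genes (2.13%) and 1 of 99 Cyp genes (1.01%). None of these counts was tested. XY-only peaks lay at 20 Zfp, 19 Slc, 7 Usp, 11 Rnf and 7 Rab genes.

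The thresholds of the rule passed close by some genes. The members farthest from an end were at Zc3hav1 (999 bp), Sox4 (998 bp) and Micu3 (997 bp), and the XX-only peaks next outside were at Gypc and Adamts15 (1006 bp each). The members at Spon1, Ttc39b, Kdelr1 and Mtmr4 had gaps of 0, 1, 1 and 2 bp to an XY peak, while the peaks at Zfp39 and Pias1 shared 1 bp with one and counted as shared.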

How the data were processed

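COUP-TFII ChIP-seq peaks of XX and XY mesonephroi were used as 2 deposited lists (chromosome, start and end, mm10), a kind of value with no other unit than position. Per the submitters' processing notes the tools were HOMER 4.10.3, bedtools 2.24.0, Bowtie 1.2, Picard and cutadapt. For their roles, the calling threshold and how replicates were combined, the sources used here say nothing. Gene ends came from RefSeq (GRCm38.p6, 20665 autosomal protein-coding genes), and strand, starts and sequences from the RefSeq promoter table, matched by gene ID (16457 genes, 20085 windows). Positions are counted from 1. Offsets run along the gene from its outermost start. Shares have exact (Clopper-Pearson) intervals, and Fisher's exact tests were two-sided with conditional odds ratios and Benjamini-Hochberg adjustment over 4 tests of position and over 30 of motifs (scipy 1.17.1, pandas 2.3.3). The peak rule and tests were checked on simulated data. Genes named are those with 2 member peaks, up to 5 per gene list closest to a gene end, those beside the thresholds, and for sequences those with AGGTCA under the peak, closest to the start. Others are named as examples after their values were seen. The members, lists and motifs were chosen with earlier results of these data known. Input and signal tracks were not analysed here. One gene of the lists is not reported here by name.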

Additional observations from a re-analysis of the deposited data

How the results depend on the processing

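Other definitions of a shared peak (at least 50% of each peak, centres within 100 bp, peaks within 1 kb), windows of 500 bp or 2.5 kb around gene ends, genes of any kind and the X chromosome were tried. For the upstream shares they were chosen after seeing the data. The number of members was 1565 with centres within 100 bp, and between 690 and 1254 otherwise. The share at gene starts was 93.9% within 2.5 kb and 94.8% with genes of any kind. Against XY-only peaks, the odds ratio for lying at the start was 0.370 within 2.5 kb (Fisher's exact p = 7.7e-05). Against shared peaks it was 0.356 with peaks within 1 kb counted as shared (Fisher's exact p = 0.000201), 0.415 within 2.5 kb (exact p = 3.37e-06), 0.597 with genes of any kind (exact p = 0.00930) and 0.575 with the X chromosome (exact p = 0.0323). It was 0.636 by Fisher's exact test with 50% in common (p = 0.0754), 0.689 with centres within 100 bp (p = 0.157) and 0.555 within 500 bp (p = 0.0820). The odds ratio for an upstream centre stayed past the threshold against XY-only peaks in these 7 settings, from 1.51 to 1.99. Against shared peaks it was, by Fisher's exact test, 1.15 with centres within 100 bp (p = 0.0677) and 1.12 with peaks within 1 kb counted as shared (p = 0.293). Within 500 bp, 1 motif comparison passed the threshold, GGGTCA against shared windows (odds ratio 0.623, adjusted Fisher's exact p = 0.0280). The cause of these changes was not tested. No paired analysis was possible because each sex has 1 list over both replicates. The depth behind the lists is unknown.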
